A study of Mus musculus with 16 samples.

Results

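Stefins and clade B serpins are 2 families of small intracellular protease inhibitors, and 8 mouse genes of these families were followed here across sorted skin epithelial cells: Stfa1, Stfa2 and Stfa3 of the stefin A family, and Serpinb3a, Serpinb2, Serpinb5, Serpinb6a and Serpinb1a of serpin clade B. The members were the genes whose name in the scanner files equals one of these 8 symbols. They are 8 of 34650 gene names on the array, each has 1 probe, and all 8 passed the filter on dim signals (well above background on 2 arrays or more), as did 31571 genes in all. Stfa1 was well above background on 13 arrays, Serpinb3a and Serpinb2 on 14 each, and Stfa3, Serpinb5, Serpinb6a and Serpinb1a on 16; Stfa2 was well above background on the 15 arrays that have a flag for it.

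Stefins block cysteine proteases of the papain type, such as the lysosomal cathepsins, by plugging the active site reversibly. Clade B serpins lack a classical secretion signal, and most of them trap a serine protease, and some a cysteine protease, in an irreversible complex after the protease cuts their reactive loop. In epidermis both families are known as cytoplasmic proteins of keratinocytes, and several members rise in wounded, inflamed or differentiating skin.

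Gene expression was measured on 1-colour Agilent arrays, with 1 array for each of 16 groups. The sort for hair follicle stem cells (HFSC) took CD34-high, ITGA6-high cells without Sca1, and the sort for the epidermis between follicles (interfollicular epidermis, IFE) took cells high in both ITGA6 and Sca1. The HFSC arrays come in pairs named tHFSC and aHFSC, which the labels do not spell out, for 6 conditions. Young mice were 12 weeks old and aged mice 25 to 26 months. The young control, a wild-type C57BL/6 group, the young Col17a1 cKO (Col17a1 flox/flox, K15crePR) and the young aPKC cKO (aPKCλ flox/flox, K15crePR) had received RU486, 2.5 mg per mouse for 5 days at 8 weeks of age, and in both knockouts the recombinase is driven from the K15 promoter. The aHFSC arrays of the control and of the Col17a1 cKO were also taken after plucking 3 days earlier, while no plucking is given for the aHFSC arrays of the other conditions. The remaining HFSC conditions are young hCOL17A1 (mice carrying a human COL17A1 transgene, whose promoter the labels do not give), aged wild type (WT) and aged hCOL17A1, and for these no RU486 is given. IFE was sampled from young WT, young hCOL17A1, aged WT and aged hCOL17A1 mice. No label says whether cells of several mice were pooled or whether arrays of a pair share mice, so p-values measure the scatter between these arrays, which may be technical. A lower signal in a sorted population can come from fewer cells that express a gene or from less RNA per cell, and the arrays cannot tell these apart.

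The sort markers followed the labels: Cd34 lay between 3.54 and 6.43 on the 12 HFSC arrays and between -6.45 and 0.31 on the 4 IFE arrays, on the log2 scale on which 0 is the 75th percentile of an array. Prkci, which encodes aPKCλ, read 3.44 and 3.28 in the tHFSC and aHFSC of its knockout against 4.25 and 4.37 in the control, and Col17a1 read 6.74 and 5.97 in its knockout against 7.02 and 6.16; whether these probes lie in the deleted parts is not known here, so they check little. All 8 young HFSC arrays lie on 1 slide and the 4 aged HFSC and 4 IFE arrays on another, so in HFSC age and slide cannot be told apart, while the age comparison in IFE lies within 1 slide. Of the 16 arrays, 2 stood apart. The aged hCOL17A1 aHFSC array had the fewest probes well above background, 59.2%, against 68.8% to 79.8% on the others, and the young hCOL17A1 IFE array correlated with the other IFE arrays at 0.915 to 0.924, whereas those 3 correlated with each other at 0.969 to 0.974, and it also held the highest Cd34 level among the IFE arrays. Values without these arrays are given beside the main results that rest on them.

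The sequences upstream of the 3 stefin A members are shown for comparison, and whether their likeness bears on expression was not tested. The 250 bases before the start of each gene, 5′ to 3′ on the gene's own strand, are from RefSeq on GRCm38.p6, at chr16:36276898-36277147 on the plus strand for Stfa1, chr16:36408364-36408613 on the minus strand for Stfa2 and chr16:36455393-36455642 on the minus strand for Stfa3. Capitals mark the 4 runs of at least 12 bases that all 3 share in the same order.
Stfa1: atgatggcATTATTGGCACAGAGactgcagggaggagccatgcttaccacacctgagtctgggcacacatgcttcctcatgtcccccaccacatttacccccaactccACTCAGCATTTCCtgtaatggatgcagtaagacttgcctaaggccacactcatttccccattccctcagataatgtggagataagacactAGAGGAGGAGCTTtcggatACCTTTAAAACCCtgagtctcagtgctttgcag
Stfa2: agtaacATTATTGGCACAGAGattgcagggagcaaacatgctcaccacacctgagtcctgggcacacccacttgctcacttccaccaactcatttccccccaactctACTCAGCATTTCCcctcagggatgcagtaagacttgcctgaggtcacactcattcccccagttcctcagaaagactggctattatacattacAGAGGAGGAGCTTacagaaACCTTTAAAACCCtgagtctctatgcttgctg
Stfa3: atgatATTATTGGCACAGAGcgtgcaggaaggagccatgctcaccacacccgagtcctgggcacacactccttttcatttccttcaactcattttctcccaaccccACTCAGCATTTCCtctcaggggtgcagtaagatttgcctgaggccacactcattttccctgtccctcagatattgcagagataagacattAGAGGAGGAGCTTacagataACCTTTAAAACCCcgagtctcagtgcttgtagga

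These runs hold 54 of the 250 bases (21.6%), and the longest has 15. In pairwise alignment the upstream sequences of Stfa1 and Stfa3 were 83.1% identical, those of Stfa1 and Stfa2 80.6% and those of Stfa2 and Stfa3 80.2%, while the 18 other pairs of members with an entry lay between 42.2% and 50.5%. This likeness is not particular to the 3 members. Against other stefin genes they ranged from 38.5% (Stfa3 with Csta1) to 89.4% (Stfa2 with Stfa2l1), with Stfa1 and Cstdc5 at 81.2%. Motifs were searched in windows of the 250 bases before each RefSeq start. None of the 3 stefin windows held the AP-1 motif TGANTCA, the cAMP response element TGACGTCA or the TATA motif TATAAA, on either strand. Serpinb2 and Serpinb5, both on chromosome 1, each held an AP-1 match, 94 and 140 bases upstream of the start, and Serpinb3a and Serpinb2 a TATA match at 65 and 29 bases, and no match overlapped another; the second RefSeq start of Serpinb2 has the same pair of matches, at 181 and 116 bases. Across 32851 mouse promoter windows of this length, 6.7% held the AP-1 motif, 1.5% the cAMP response element and 12.4% the TATA motif. These are matches of letters and not sites of binding.

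Likeness between paralogs matters for what a probe reads. By the mm9 coordinates of the array design, the Stfa1 probe lies at chr16:36285398-36285457, the Stfa2 probe at chr16:36404032-36404089 and the Stfa3 probe at chr16:36450693-36450752; the 60-base Stfa1 and Stfa2 probes match at 40 of 58 aligned bases. Serpinb3a is read at chr1:108942312-108942371, Serpinb2 at chr1:109422046-109422105 and Serpinb5 at chr1:108778585-108778644, and Serpinb6a and Serpinb1a at chr13:34009796-34009855 and chr13:32934693-32934752. Whether these positions are coding or untranslated was not analysed here. Among the probes of the array, only those of Stfa3 and Serpinb6a share a run of 20 or more bases with a probe of another gene. Probes were not compared with transcripts, so whether any member's probe also matches the RNA of a paralog was not tested. For each of these probe pairs, 30 bases are shown with the differing bases in capitals. The upper pair is Stfa3 and Gm5483, a stefin gene that RefSeq now calls Cstdc4, and the lower pair is Serpinb6a and its paralog Serpinb6c.
Stfa3: GAaacttAaGggttaccagactaacaaaac
Gm5483: AGaacttCaTggttaccagactaacaaaac
Serpinb6a: tgcaatgGcaATtatgaaataaagggcttT
Serpinb6c: tgcaatgAcaGCtatgaaataaagggcttA

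The Serpinb6a probe matches the Serpinb6c probe at 55 of 59 aligned bases, and their levels over the 16 arrays correlated at 0.82, so a Serpinb6a value may hold Serpinb6c RNA and is uncertain to that extent. The Stfa3 and Gm5483 probes match at 30 of 35 bases where they overlap, and their levels correlated at 0.91.

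Between the paired HFSC states the stefins read higher in aHFSC, short of the threshold, and the serpins showed no common direction. Stfa1 was higher in aHFSC in 6 of 6 conditions, Stfa2 and Stfa3 in 5 of 6, and Serpinb3a in 4 of the 5 conditions where it was measured. None of the 8 members passed the test of the common aHFSC shift (limma, adjusted p below 0.05 over 31571 genes), which 0.526% of all genes passed; 4 of the 8, the stefins and Serpinb3a, had an unadjusted p below 0.05, as did 12.5% of all genes. The median shift of the 8 was 0.74, against -0.093 over all genes tested.

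**Figure D1:**
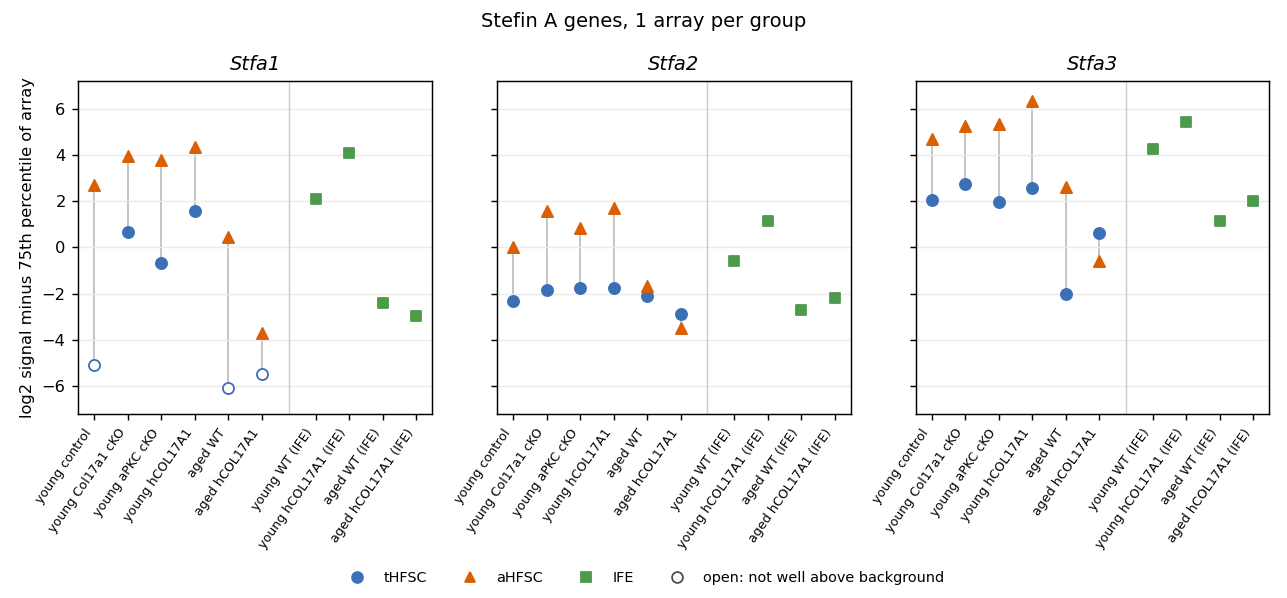
Levels of Stfa1, Stfa2 and Stfa3 on each of the 16 arrays, as log2 signal relative to each array's 75th percentile. Circles are tHFSC, triangles aHFSC and squares IFE, a grey line joins the 2 arrays of an HFSC condition, and open symbols were not well above background. In the 4 young conditions every triangle lies above its circle, and in IFE both young squares lie above both aged squares.

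Stfa1, stefin A1, varied widely. Its level in tHFSC was -5.10 in the young control, 0.65 in the Col17a1 cKO, -0.66 in the aPKC cKO, 1.59 in young hCOL17A1, -6.10 in aged WT and -5.50 in aged hCOL17A1. In aHFSC it was 2.71, 3.95, 3.77, 4.33, 0.43 and -3.72 in the same order. The control and both aged tHFSC arrays were not well above background, so for them only a lower bound can be given: aHFSC was at least 165-fold higher than tHFSC in the control, at least 41.1-fold in aged WT and at least 1.53-fold in aged hCOL17A1, against the floor of each array (its dimmest probe that passed the background flag, or the Stfa1 probe itself where that was brighter). The true level of a probe that failed the flag may lie above this floor, so the bounds, here and below, hold against the floor only. Where both arrays measured Stfa1, aHFSC was 9.92-fold higher in the Col17a1 cKO, 21.4-fold in the aPKC cKO and 6.68-fold in young hCOL17A1. The fitted shift was 4.43 ± 0.77 (SE, limma adjusted p = 0.0547), just short of the threshold; with quantile normalization it was 4.64 (adjusted p = 0.0457), with the mean of the probes of each gene the adjusted p was 0.0472, and with normexp background correction the shift was 2.93 (0.0601). Over all 27 alternatives its adjusted p ran from 0.0457 to 0.504, with no change of sign.

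Stfa3, a paralog of the same cluster, was well above background throughout. Its tHFSC levels were 2.03 in the control, 2.74 in the Col17a1 cKO, 1.97 in the aPKC cKO, 2.57 in young hCOL17A1, -2.03 in aged WT and 0.61 in aged hCOL17A1. Its aHFSC levels were 4.71, 5.24, 5.33, 6.33, 2.61 and -0.57. The 4 young pairs thus differed by a narrow 2.50 to 3.76, while the aged pairs differed by 4.64 in WT and by -1.18 in hCOL17A1. The shift over the 6 pairs was 2.63 ± 0.64 (SE, limma adjusted p = 0.134). It was 3.39 (adjusted p = 0.0458) without the 2 arrays that stood apart, 3.39 (0.0361) without the aged hCOL17A1 tHFSC array and 3.39 (0.0355) without the aged hCOL17A1 aHFSC array. Each of these fits drops the aged hCOL17A1 pair, the only one with a negative difference, so they give the same estimate and are not separate results. Within the slide of the young arrays the shift was 3.08, and within the slide of the aged arrays 1.73. The adjusted p of Stfa3 ran from 0.0355 to 0.773 over its alternatives.

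Stfa2 differed between ages in how far the states were apart. In tHFSC it held a narrow range, from -2.89 to -1.77, and in aHFSC it was 0.02 in the control, 1.56 in the Col17a1 cKO, 0.83 in the aPKC cKO, 1.72 in young hCOL17A1, -1.69 in aged WT and -3.50 in aged hCOL17A1. The pairs therefore differed by 2.36 to 3.49 in the 4 young conditions, by 0.43 in aged WT and by -0.61 in aged hCOL17A1. The common shift was 1.94 ± 0.55 (SE, limma adjusted p = 0.188); it was 2.96 within the slide of the young arrays and -0.09 within the slide of the aged arrays. A term for the difference in shift between aged and young conditions was -3.05 ± 0.56 (SE; unadjusted p = 0.000712, adjusted p = 0.529), and it cannot be told apart from the slide. No gene passed this test, 0.00% of 31571, and Stfa2 was the only member with an unadjusted p below 0.05, against 6.16% of all genes. The control tHFSC value of Stfa2, -2.34, comes from the authors' deposited value table, because the scanner file of that array ends before this probe.

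**Figure D2:**
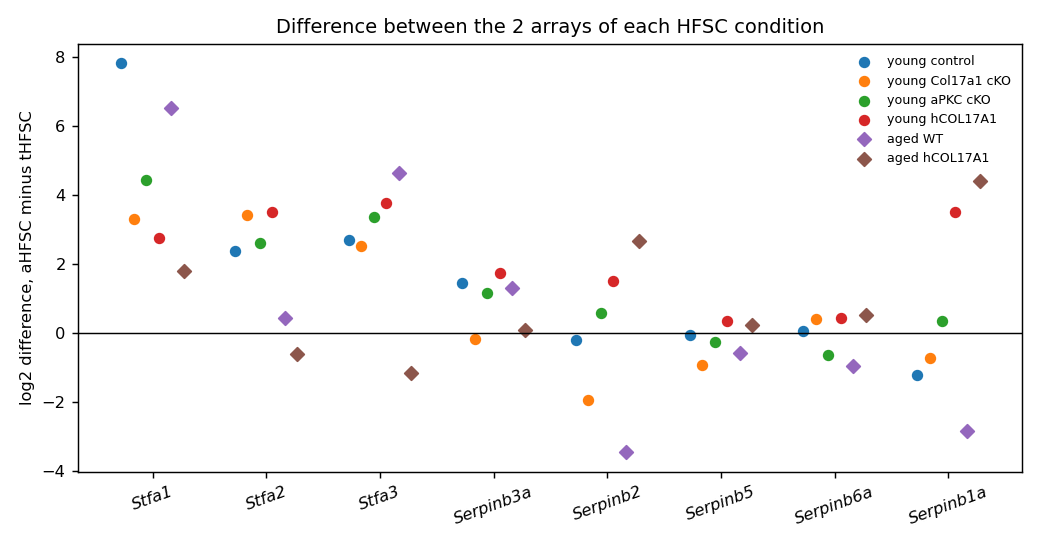
Difference between aHFSC and tHFSC (log2) for each of the 8 members, with 1 point per HFSC condition, circles for young and diamonds for aged mice. All 18 stefin points except the aged hCOL17A1 points of Stfa2 and Stfa3 lie above 0, while the points of Serpinb2, Serpinb5, Serpinb6a and Serpinb1a lie on both sides of 0.

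Among the serpins, Serpinb3a, the mouse counterpart of the human squamous cell carcinoma antigens, came nearest to the stefins. It was higher in aHFSC by 1.45 in the control, 1.14 in the aPKC cKO, 1.74 in young hCOL17A1 and 1.30 in aged WT, and differed by -0.17 in the Col17a1 cKO; in aged hCOL17A1 both arrays were below background, so that pair shows no order. The shift was 0.92 ± 0.40 (SE, limma adjusted p = 0.397). Serpinb2, plasminogen activator inhibitor 2, differed by -3.47 to 2.66 with 3 pairs in each direction, and the aged pairs were opposite: tHFSC was at least 8.29-fold higher in aged WT, and aHFSC at least 3.96-fold higher in aged hCOL17A1. Serpinb1a, an inhibitor of neutrophil serine proteases, differed by -2.85 to 4.40, also with 3 pairs in each direction. Serpinb5, maspin, which does not act as a classical protease inhibitor, and Serpinb6a, an inhibitor of trypsin-like proteases and cathepsin G, stayed within 0.95 and 0.98 of their partners in every pair.

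The pattern that 3 members shared, aHFSC above tHFSC in all 4 young conditions, held for 8.78% of all genes, and the pattern of Stfa1 over all 6 conditions for 4.55%. Other stefin genes on chromosome 16 read in the same direction. Stfa2l1, Gm5483, BC117090 and BC100530, with 1 probe each between 36160118 and 36359584 on that chromosome in mm9, are the stefin-like genes of the list of cystatins and stefins, and they are named here after their values were seen. Each read higher in aHFSC in 5 of 6 conditions, all but aged hCOL17A1, and none passed the test. In aged hCOL17A1, Stfa2l1, Gm5483 and BC117090 lay below the floor of both arrays (-4.34 in tHFSC and -4.08 in aHFSC), so those pairs show no order. BC100530 was well above background on all HFSC arrays. It lay between 2.19 and 5.89 in aHFSC outside aged hCOL17A1, where it was -2.07 against -0.26 in tHFSC. Its shift was 2.05 ± 0.64 (SE, limma adjusted p = 0.231). Of the 9 tested genes on that list of 10, 6 were higher and 3 lower, none past the threshold. Cstb, stefin B, was 0.47 ± 0.22 higher (adjusted p = 0.439).

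The only gene of the related lists to pass in this comparison was S100a9, a calcium-binding protein of wounded keratinocytes and of neutrophils, which rose by 5.28 ± 0.74 (SE, limma adjusted p = 0.0355) and was higher in aHFSC in 6 of 6 conditions; it was well above background on all 6 aHFSC and on 2 tHFSC arrays. Its partner S100a8 read 3.46 ± 0.81 higher (adjusted p = 0.121). Both genes also stand on the list of 12 neutrophil markers, of which 5 read higher and 7 lower in aHFSC; S100a9 alone passed. Of the 12, between 6 and 10 passed the background flag on a tHFSC array and between 5 and 11 on an aHFSC array. Among granule genes, Camp and Elane passed it on 6 of 6 arrays of each state, Mpo on 6 and 5, Ngp on 4 and 2, Ltf on 3 and 1, and Retnlg on 2 and 0. The summed signal of the list, which the bright probes of Csf3r and Itgam set, ran from 8.73 to 9.19 in tHFSC and from 8.69 to 9.0 in aHFSC. All 16 genes of the wound and stress keratinocyte list are on the array, and of the 15 tested 10 read higher and 5 lower. Suprabasal markers (Krt1, Krt10, Krtdap and Sbsn) read higher in aHFSC for 4 of 4 genes with a median of 0.13 and no call, and their summed level ran from 4.88 to 8.33 in tHFSC and from 5.8 to 8.66 in aHFSC. Fibroblast markers read the other way: 4 of 4 tested read lower in aHFSC, 1 past the threshold, with a median of -0.47. Their summed level was 0.94 to 2.99 in tHFSC and -0.49 to 0.72 in aHFSC. Most of this sum came from Col1a2 alone, at 0.79 to 2.92 in tHFSC and -1.27 to 0.48 in aHFSC. Col1a1 passed the background flag on only 2 tHFSC and 3 aHFSC arrays. The part of these cells in the stefin shift was not tested.

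Against IFE, the matched tHFSC arrays had less Stfa1, Serpinb3a and Serpinb2, and the matched aHFSC arrays had less Serpinb2. These comparisons set the 4 HFSC conditions that IFE also has (young control or WT, young hCOL17A1, aged WT and aged hCOL17A1) against the 4 IFE arrays. For the young conditions HFSC and IFE lie on different slides, so slide and compartment cannot be told apart there. The young control had also received RU486, and its aHFSC array plucking, and neither is given for young WT IFE. In tHFSC 3 of 8 members fell below IFE past the threshold, where 4.23% of all genes did, and none was above it, where 2.10% were. In aHFSC 1 of 8 members was lower, against 2.62% of all genes, and none higher, against 1.62%. The median difference of the 8 was -1.98 for tHFSC and -0.08 for aHFSC, against -0.044 and -0.135 over all genes.

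Serpinb2 was the member that set IFE apart. Its IFE levels were 3.92 in young WT, 4.74 in young hCOL17A1, 3.42 in aged WT and 3.40 in aged hCOL17A1. In HFSC it was -0.75 and -0.95 in the tHFSC and aHFSC of the control, 1.85 and -0.10 in the Col17a1 cKO, -1.04 and -0.49 in the aPKC cKO, and 0.58 and 2.08 in young hCOL17A1. In aged WT it was -1.45 and -4.92 and in aged hCOL17A1 -5.01 and -2.35, where the value of -4.92 and that of -5.01 were not well above background. Every IFE array thus lay above all 12 HFSC arrays, which held for 2.09% of genes and for no other member. Against the 4 matched tHFSC arrays alone, and against the 4 matched aHFSC arrays alone, such a gap likewise held for Serpinb2 only among the members, and for 8.54% and 6.06% of genes. The difference was -5.39 ± 0.84 for tHFSC and -5.54 ± 0.84 for aHFSC (SE, limma adjusted p = 0.00849 and 0.00876), with 4 of 4 matched pairs lower in each. As lower bounds, aged WT IFE was at least 242-fold above aged WT aHFSC, and aged hCOL17A1 IFE at least 213-fold above aged hCOL17A1 tHFSC. Both calls were lost without the young hCOL17A1 IFE array (-5.18, adjusted p = 0.0604, for tHFSC and -5.33, 0.0694, for aHFSC) and without the aged WT IFE array (0.0602 and 0.07). They were also lost within the slide that holds the aged HFSC and the IFE (-6.64, adjusted p = 0.178, and -7.05, 0.171), and the tHFSC call with slide as a block (adjusted p = 0.100), while the differences there were larger. Over the alternatives the adjusted p ran from 0.00141 to 0.178 for tHFSC and from 0.0013 to 0.171 for aHFSC.

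**Figure D3:**
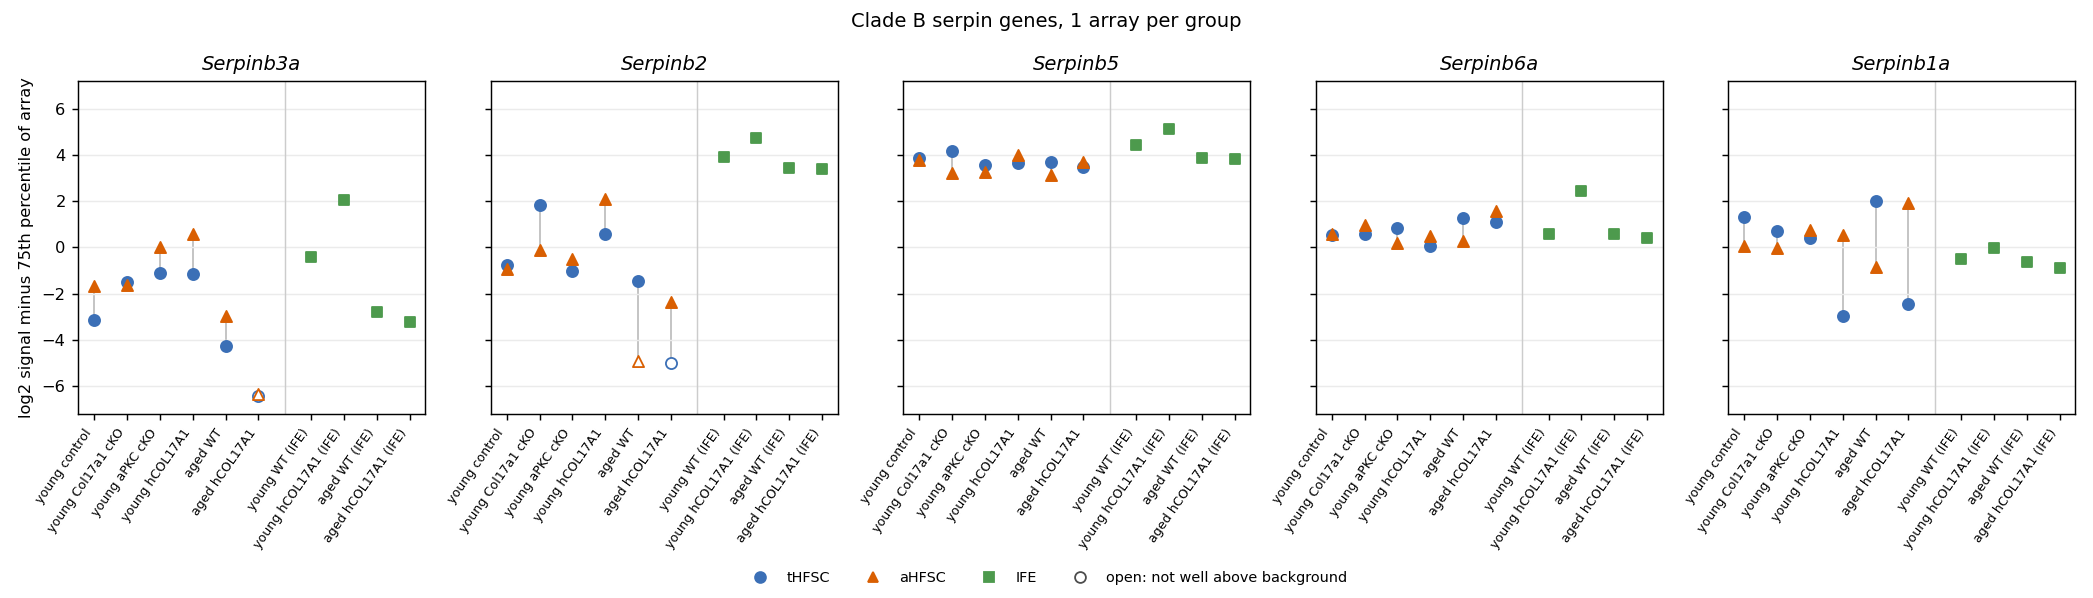
Levels of the 5 clade B serpin members on each of the 16 arrays, as log2 signal relative to each array's 75th percentile, with the symbols as circles for tHFSC, triangles for aHFSC, squares for IFE and open symbols for values not well above background. All 4 squares of Serpinb2 lie above its 12 HFSC symbols, from 3.40 to 4.74, whereas those of the other serpins overlap the HFSC range.

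Serpinb3a in IFE was -0.43 in young WT, 2.05 in young hCOL17A1, -2.80 in aged WT and -3.24 in aged hCOL17A1. In tHFSC it was -3.13 in the control, -1.48 in the Col17a1 cKO, -1.13 in the aPKC cKO, -1.17 in young hCOL17A1 and -4.28 in aged WT, and in aHFSC it was -1.68, -1.65, 0.01, 0.56 and -2.99. Both aged hCOL17A1 HFSC arrays, at -6.42 and -6.35, were not well above background. The ranges of tHFSC and IFE overlap, but each of the 4 matched pairs was lower in tHFSC, in aged hCOL17A1 only as a bound, with IFE at least 2.14-fold higher. The fitted difference was -2.54 ± 0.47 (SE, limma adjusted p = 0.0168). It was -1.76 (adjusted p = 0.0684) without the 2 arrays that stood apart, -1.28 (0.0728) with normexp background correction, and -2.33 within the slide of the aged HFSC (0.406) or with slide as a block (0.507). Leaving out the control, young hCOL17A1 or aged WT tHFSC array, or the young hCOL17A1 or aged WT IFE array, also ended the call, at adjusted p between 0.058 and 0.0896; over all alternatives it ran from 0.00962 to 0.507. For aHFSC the difference was -1.62 ± 0.47 (adjusted p = 0.108), and it passed without the young WT IFE array or without the aged hCOL17A1 IFE array (-2.35 in both, adjusted p = 0.0296 and 0.0294, in a range of 0.0294 to 0.89).

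Stfa1 in IFE was 2.08 in young WT, 4.07 in young hCOL17A1, -2.42 in aged WT and -2.95 in aged hCOL17A1. It was lower in tHFSC in 4 of 4 matched pairs, with a fitted difference of -3.83 ± 0.91 (SE, limma adjusted p = 0.0428), and 3 of those 4 tHFSC arrays were not well above background. As lower bounds, IFE exceeded tHFSC at least 106-fold in the young control or WT, 5.66-fold in aged WT and 2.62-fold in aged hCOL17A1. In 19 of 26 alternative fits the call was lost, always with the same direction, and the adjusted p ran from 0.0238 to 0.544. Of the 16 arrays left out in turn it survived 4, the control, aged WT and aged hCOL17A1 aHFSC arrays and the aged hCOL17A1 tHFSC array, and it was lost without any of the other 12, at most to 0.249 without the young hCOL17A1 IFE array. Among the settings, the difference was -2.11 (adjusted p = 0.0978) with normexp correction, -3.66 (0.0534) with quantile normalization, and -3.07 (0.185) without the 2 arrays that stood apart. Stfa3 read -2.49 ± 0.75 in tHFSC against IFE (adjusted p = 0.0934), and -2.22 (0.0431) without those 2 arrays, in a range of adjusted p from 0.00372 to 0.662 over its alternatives. Against aHFSC the stefins showed differences of 0.60 for Stfa1, 0.48 for Stfa2 and 0.14 for Stfa3, with SE of 0.91, 0.64 and 0.75, and adjusted p between 0.760 and 0.953.

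The remaining members were close between the compartments. Serpinb5 read -0.54 ± 0.23 in tHFSC and -0.76 ± 0.23 in aHFSC against IFE (limma adjusted p = 0.238 and 0.129), lower in 4 of 4 matched pairs in each. Serpinb6a differed by -0.25 ± 0.37 and -0.30 ± 0.37, and Serpinb1a by 0.16 ± 1.04 and 0.73 ± 1.04. Within clade B the calls ran both ways. Serpinb11 was 7.46 ± 0.47 higher in tHFSC and 5.56 ± 0.47 higher in aHFSC than in IFE (SE, adjusted p = 0.000116 and 0.000564), and Serpinb7, an epidermal serpin, was lower, at -5.13 ± 0.68 in tHFSC (adjusted p = 0.00438) and -5.10 ± 0.68 in aHFSC (0.00502). Of the 14 tested genes on the list of 16 other clade B serpins, 1 passed higher and 1 lower in tHFSC, and 1 higher and 2 lower in aHFSC. None of the 9 tested cystatins and stefins passed.

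Among the proteases that these families can inhibit, tHFSC stood below IFE for Plau, the urokinase that Serpinb2 inhibits (-4.61 ± 1.1, limma adjusted p = 0.0432), and for Ctsc (-3.90 ± 0.60, 0.00804), a cysteine protease. Ctsz stood above it (2.27 ± 0.51, 0.0340). These 3 are named after their values were seen. In all, 1 of 7 tested cysteine proteases was higher and 1 lower in tHFSC, and 2 of 18 serine proteases were lower. Suprabasal markers fell in both HFSC states: 3 of 4 were lower than in IFE past the threshold, with a median of -1.91 in tHFSC and -1.87 in aHFSC, and their summed level was 7.61 to 8.74 in IFE. In the wound and stress list 2 genes were higher and 3 lower in tHFSC, with Krt6a, a keratin of the follicle and of wounds, 5.50 ± 0.62 higher (adjusted p = 0.00211) and Il33, an alarmin cytokine, lower (-5.69 ± 1.17, 0.0238). In aHFSC, Krt6a was 5.16 ± 0.62 higher than in IFE (adjusted p = 0.00302), and Calml3, a calmodulin-like protein of keratinocytes, 3.80 ± 0.35 higher (0.000819). Of 5 T-cell markers, 3 read lower and 2 higher in tHFSC than in IFE, and 4 lower and 1 higher in aHFSC. In each HFSC state 1 was lower past the threshold. The list had a summed level in IFE of 3.94 to 4.83 against 0.36 to 2.70 in tHFSC and 0.21 to 2.64 in aHFSC. Most of the sum in IFE came from Thy1 alone, at 3.67 to 4.78, against -2.4 to 1.79 in tHFSC and -2.97 to 1.74 in aHFSC. The part of these other cells in the serpin differences was not tested.

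In IFE, all 8 members read lower in aged than in young mice, and 7 of the 8 had both young arrays above both aged arrays. That separation held for 21.9% of all genes in this direction and for 14.9% in the other. No gene on the array passed the test in this comparison (limma, 0 of 31571, 0.00%), so none of the members did, and 5 of 8 had an unadjusted p below 0.05, against 6.52% of all genes. The median difference of the 8 was -1.86, against -0.111 over all genes.

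**Figure D4:**
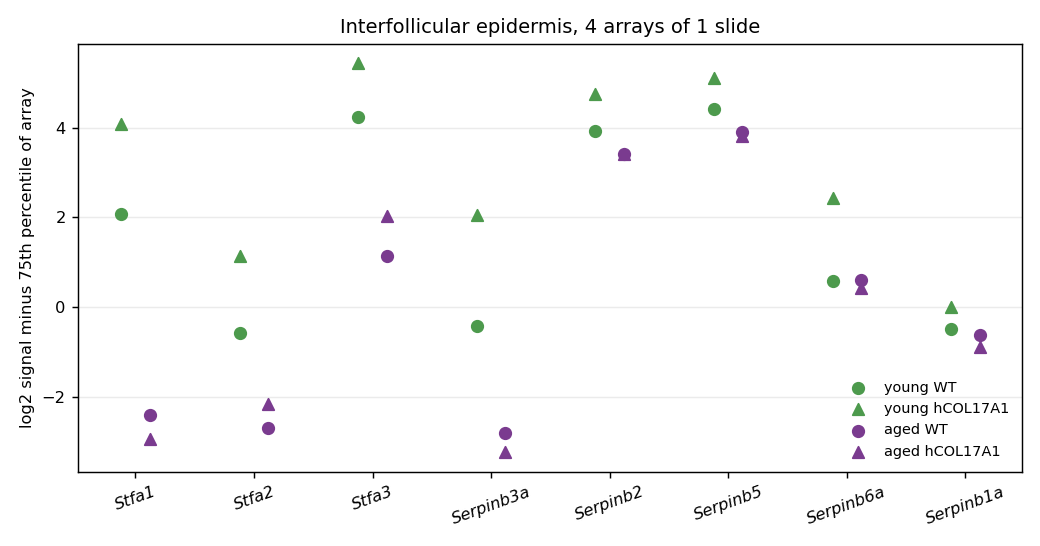
Levels of the 8 members on the 4 IFE arrays, all from 1 slide, as log2 signal relative to each array's 75th percentile. Green symbols are young and purple symbols aged mice, circles WT and triangles hCOL17A1. For 7 members both green symbols lie above both purple ones; for Serpinb6a the young WT circle, at 0.58, lies level with the aged WT circle, at 0.60.

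The stefins and Serpinb3a differed most. Stfa1 differed by -5.76 ± 1.34, Serpinb3a by -3.83 ± 0.70, Stfa3 by -3.25 ± 1.1 and Stfa2 by -2.71 ± 0.95 (SE, 2 against 2 arrays, limma adjusted p = 0.744 for each). Stfa3 was 4.24 and 5.43 on the young WT and young hCOL17A1 arrays and 1.14 and 2.02 on the aged arrays. Stfa2 was -0.59 and 1.13 in young and -2.71 and -2.17 in aged IFE. Without the 2 arrays that stood apart, of which the young hCOL17A1 IFE array is 1, the difference was -4.50 for Stfa1, -2.36 for Serpinb3a, -3.10 for Stfa3 and -2.13 for Stfa2. Serpinb3a read -5.29 when the young WT or the aged WT IFE array was left out. Both of these fits give the single difference between the aged and the young hCOL17A1 IFE arrays, and the young one stood apart. Under the other alternatives the adjusted p of Serpinb3a reached 1.0.

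Serpinb5 was 4.42 and 5.11 in young and 3.89 and 3.81 in aged IFE, a difference of -0.91 ± 0.35 (SE, limma adjusted p = 0.744). Serpinb2 differed by -0.92 ± 1.24 and Serpinb1a by -0.51 ± 1.54, both well within their error. Serpinb6a differed by -1.0 ± 0.54, but its young WT and aged WT levels were 0.58 and 0.60, so the difference came from the young hCOL17A1 array at 2.43.

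Genes beside the members read lower in aged IFE too, with no call. The 4 stefin-like genes named above each had both young arrays above both aged arrays, with a difference of -4.18 ± 1.11 for BC100530 (SE, limma adjusted p = 0.744), which was well above background on all 4, whereas Cstb read -0.36 ± 0.39. Of 11 cornified envelope genes 9 read lower in aged IFE and 2 higher, with a median of -2.47 and a summed level of 7.57 to 8.07 in aged and 8.51 to 8.93 in young IFE; none passed. Of 15 wound and stress genes 13 read lower. The suprabasal markers read lower for 3 of 4, with a median of -0.73, and S100a9 read -6.93 ± 1.29 (adjusted p = 0.744), with -0.82 and 1.49 in young and -6.82 and -6.37 in aged IFE, where it was not well above background. Their part in the stefin values was not tested.

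In HFSC, lower values with age were seen for some of the same members, on arrays whose age and slide coincide. By their signals, both aged arrays lay below all 4 young arrays in tHFSC and again in aHFSC for 4 members, Stfa1, Stfa3, Serpinb3a and Serpinb2, against 2.51% of all genes. For Stfa1 this is not a measured order in tHFSC, since the young control array was below background there as both aged arrays were. All 4 aged arrays lay below all 8 young arrays for Serpinb2 alone among the members, against 1.45%. In the test of aged WT against the young control, 0.00% of genes passed; 7 of 8 members read lower, with a median of -0.98, against -0.002 over all genes, and 1, Stfa3, had an unadjusted p below 0.05, against 4.99% of genes. Stfa3 had a fitted difference of -3.08 ± 1.1 (SE, limma adjusted p = 0.987). Stfa1 read -1.64 ± 1.34, Serpinb3a -1.23 ± 0.70 and Serpinb2 -2.33 ± 1.24, with 2 of 2 states lower for Serpinb3a and Serpinb2; for Stfa1 only the aHFSC pair shows an order, since both tHFSC arrays were below background. The young control also differs from aged WT in RU486 and plucking. Serpinb5 and Serpinb1a read -0.40 ± 0.35 and -0.12 ± 1.54, and Serpinb6a 0.24 ± 0.54.

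The hCOL17A1 transgene was set against its controls at both ages. In young HFSC, 6 of 8 members read higher than in the control, with a median of 1.1 against 0.008 over all genes, and in aged HFSC 6 of 8 read lower than in aged WT, with a median of -0.68 against -0.233. No gene passed either test (limma, 0.00% of 31571). In the young comparison 2 members had an unadjusted p below 0.05, against 6.77% of genes: Stfa1 at 4.15 ± 1.34 (adjusted p = 0.600) and Serpinb3a at 2.10 ± 0.70 (0.623), each higher in both states. The Stfa1 value rests in part on the control tHFSC array, where the gene was not well above background: it was 2.12 (adjusted p = 1.0) without that array and 6.18 (0.313) without the control aHFSC array. The young control had received RU486, and its aHFSC array plucking, and for the transgenic arrays neither is given, so the transgene and these treatments cannot be told apart there. In the aged comparison 1 member had an unadjusted p below 0.05, against 12% of genes: Serpinb3a at -2.75 ± 0.70 (adjusted p = 0.263), and since both aged hCOL17A1 arrays were below background its levels in aged WT were at least 1.49-fold higher. With normexp correction this difference was -0.31 (adjusted p = 0.974), and without the aged hCOL17A1 aHFSC array it was -2.24 (0.445), in a range of 0.113 to 0.974. Stfa1, Stfa2 and Stfa3 read -1.78 ± 1.34, -1.30 ± 0.95 and -0.27 ± 1.1 there, and -0.19, 0.24 and 2.01 without the aged hCOL17A1 aHFSC array, so that Stfa2 and Stfa3 turned in sign and the lower readings of the stefins rest on the array that stood apart. Both tHFSC values of Stfa1 in this comparison were below background. Whether the transgene difference itself changed with age was not tested. In IFE all 8 members read higher with the transgene, by 0.10 to 1.13, none with an unadjusted p below 0.05, against 5.52% of genes, and with 0.00% of genes called. The young pair, which holds the array that stood apart, read higher with the transgene for all 8, and the aged pair only for Stfa2 and Stfa3.

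The 2 knockouts gave small sets of values above their shared control. In the Col17a1 cKO, 6 of 8 members read higher, with a median of 0.73 against -0.087 over all genes; in the aPKC cKO, 5 of 8, with a median of 0.18 against 0.028. No gene passed in either (limma, 0.00%). Stfa1 read 3.49 ± 1.34 in the Col17a1 cKO (unadjusted p = 0.0292, adjusted p = 1.0) and 2.75 ± 1.34 in the aPKC cKO (0.0717 and 1.0), and both differences rest on the control tHFSC array, where Stfa1 was not well above background; in aHFSC alone the knockouts exceeded the control by 1.24 and 1.05. Serpinb3a read 0.84 ± 0.70 in the Col17a1 cKO and 1.85 ± 0.70 in the aPKC cKO (unadjusted p = 0.259 and 0.0275). Among the 8 members 1 per knockout had an unadjusted p below 0.05, against 3.97% and 3.46% of genes. Between the knockouts themselves, 0 of 8 had an unadjusted p below 0.05 and 0.00% of genes passed, and the differences ran from -1.0 for Serpinb3a to 1.64 for Serpinb2. Plucking is given for the Col17a1 cKO aHFSC array and not for that of the aPKC cKO.

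Over the 16 arrays the stefins and Serpinb3a had profiles alike, and the other serpins had profiles of their own. Pearson correlations between log2 levels are descriptions here: the 16 points share slides, the normalization and cell states, and no p is attached. The stefins correlated with each other at 0.87 to 0.92 and with Serpinb3a at 0.79 to 0.84. Serpinb2 and Serpinb5 correlated at 0.75 with each other and at 0.20 to 0.41 with the stefins. Serpinb6a and Serpinb1a correlated with the stefins at -0.15 to 0.07.

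**Figure D5:**
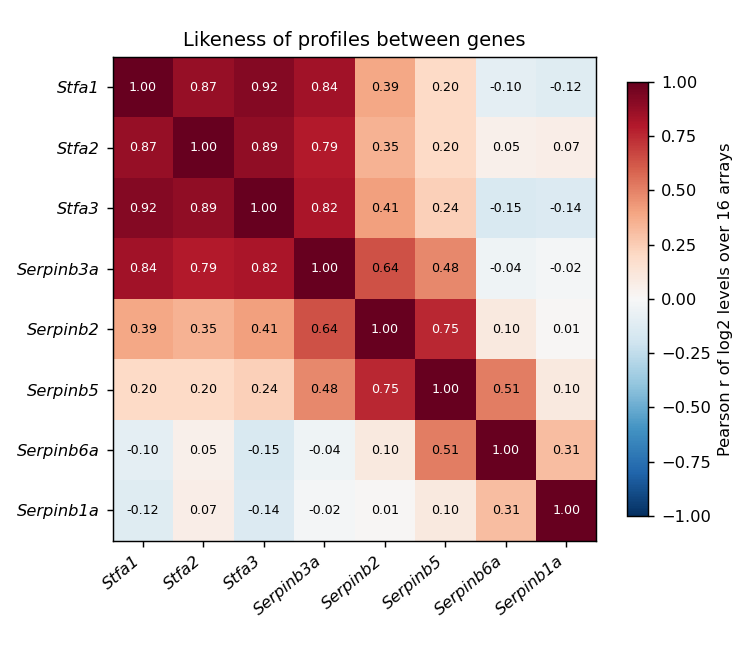
Pearson correlation of log2 levels over the 16 arrays for each pair of the 8 members, with the value printed in each cell. The stefins and Serpinb3a form a block of 0.79 to 0.92, Serpinb2 and Serpinb5 a pair at 0.75, and Serpinb6a and Serpinb1a lie near 0 with the stefins.

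Among 15346 genes with an official symbol and a signal above background on 8 or more arrays, the profile most like Stfa1 was that of Krt16, a keratin of wounded and hyperproliferative epidermis (r = 0.947), followed by Endou (0.929) and Stfa3 (0.916). Stfa2 was most like Sprr1b, a cornified envelope precursor (0.901), Stfa3 (0.891) and Stfa2l1 (0.886), and Stfa3 was most like Endou (0.944), Stfa1 and Stfa2. Serpinb3a was most like Fabp5, an epidermal fatty-acid-binding protein (0.931), its own paralog Serpinb3c (0.923) and Klk5, a kallikrein protease of the stratum corneum (0.911). Serpinb2 was most like Dapl1 (0.966), Gdpd2 (0.965) and Oas1f (0.960). Serpinb5 was most like Usp32 (0.907) and Rnf19b (0.898), and Serpinb6a was most like Pygo2 (0.950), Trmt112 (0.937) and Cdh3 (0.932). Serpinb1a had no profile above 0.810 among them, with Pnpla8, Mxd4 and Hmox2 nearest.

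Serpinb1a varied widely between arrays, and no test called it. Its tHFSC levels were 1.32 in the control, 0.71 in the Col17a1 cKO, 0.42 in the aPKC cKO, -2.99 in young hCOL17A1, 2.0 in aged WT and -2.47 in aged hCOL17A1. In aHFSC they were 0.08, -0.03, 0.77, 0.52, -0.85 and 1.93, and in IFE they lay between -0.90 and -0.01. The 2 lowest values of the gene were thus the 2 hCOL17A1 tHFSC arrays, of different ages and slides, while in aHFSC the aged hCOL17A1 array held the highest. Serpinb6a and Serpinb5 varied least: over all 16 arrays Serpinb6a lay between 0.07 and 2.43 and Serpinb5 between 3.12 and 5.11. On the 12 HFSC arrays Serpinb5 stayed between 3.12 and 4.18, whereas Serpinb3a ran from -6.42 to 0.56 and Serpinb2 from -5.01 to 2.08.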

How the data were processed

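The authors deposited 1 Agilent Feature Extraction 11.5.1.1 scanner file per array, whose processed signal is a linear intensity, background-subtracted per the file headers. A value table deposited by the authors holds the same arrays on the log2 scale, equal to log2 of that intensity minus the 75th percentile of the array. Here control spots were left out, and outlier spots too, except for the 13 to 128 probes per array whose spots were all outliers. Spots of a probe were averaged and the 75th percentile of the array was subtracted. For 1 truncated scanner file, 9264 of 55681 probes came from the value table, without background flags. The other probes of that array were shifted by their median difference from the value table. Probes well above background on at least 2 of 16 arrays were kept (49833), and a gene was read by its brightest probe. All 16 arrays were fitted in limma 3.58.1 (R 4.3.3; lmFit, eBayes with a trend, two-sided, Benjamini-Hochberg over 31571 genes, threshold 0.05): 6 HFSC condition terms, a common aHFSC shift, and IFE intercept, age and transgene terms, with 6 residual degrees of freedom, or 5 with a state-by-age term. The spread is that around this additive fit and not between animals, and the number of arrays limits the precision. The fit was tested on simulated data. The lists hold cystatins and stefins, clade B serpins, target cysteine and serine proteases, epithelial inhibitors, wound and stress keratinocyte genes, cornified envelope genes and markers of neutrophils, T cells and suprabasal epidermis among other cells. The members and lists were chosen with earlier results of these data known. Named beside the members are up to 4 related genes per comparison past the threshold, the largest first, and the 3 most alike profiles, of which 1 is not reported here. Other related genes in the text were named after their values were seen. Alternatives covered background correction, normalization, filters, probes, the variance trend, slides and each array left out.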

Additional observations from a re-analysis of the deposited data

Results flagged for a closer look

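Of 24 sets of arrays examined (each member within tHFSC, aHFSC and IFE), 1 held an array far from the others. Serpinb6a was 2.43 on the young hCOL17A1 IFE array, and the other 3 IFE arrays lay between 0.42 and 0.60; the gap is 0.91 of the whole range, above the critical 0.829 for 4 values. About 1 in 20 sets passes this limit by chance. The same array stood apart from the other IFE arrays over all probes, and Serpinb6c, whose probe is nearly the same, read 1.02 there against -1.22 to -0.83 on the other 3.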

How the results depend on the processing

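The calls against IFE are the results that depend most on the processing. For tHFSC against IFE, 3 members passed. With normexp correction 1 did, within the slide of the aged HFSC and with slide as a block 0, and 0 to 4 when each array was left out in turn. A filter for probes well above background on all 16 arrays removed Stfa1, Serpinb3a and Serpinb2. Its count of 0 among the 5 members left therefore could not test these calls. For aHFSC against IFE, 1 passed, and 0 did within the slide of the aged HFSC, and 0 to 2 with an array left out. The called member, Serpinb2, was removed by the stricter filter, which could not test this call either. For aHFSC against tHFSC, 0 passed, and 1 did with quantile normalization, with the mean of the probes of a gene and without the 2 arrays that stood apart, and 0 to 1 with an array left out. For aged against young IFE the count was 0, and leaving out any IFE array left the difference of a single aged and a single young array. The shift of Stfa2 between states turned to -0.09 within the slide of the aged arrays. Of 24 member differences with an unadjusted p below 0.05, 23 kept their sign under every alternative run; over all 96 differences it was 47. The cause of these changes was not tested. No paired analysis by replicate number was possible because each group has 1 array; the condition block of the main fit pairs the 2 states, and with no condition block 0 members passed for aHFSC against tHFSC. Dim signals limit Stfa1, Serpinb3a and Serpinb2, whose lowest levels are only bounds.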
